A study of Mus musculus with 6 samples.

Results

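The genes of the actin cytoskeleton and of the contractile apparatus of myofibroblasts were compared between dermal fibroblasts with and without a constitutively active Nrf2. They are 36 genes given by name, of 43629 genes in the tables. Of them 15 are smooth muscle-type genes, such as Acta2, Tagln and Cnn1, and 21 are general actin and adhesion genes, such as Actb, Flna and Vcl. All 36 had enough reads to be tested. RNA was sequenced from primary dermal fibroblasts of newborn mouse skin after 6 days of culture at passage 1. The caNrf2 group held 3 libraries with the genotype Col1a2Cre-caNrf2, a mutant of Nrf2 that is always active together with Cre. The ctrl group held 3 libraries with the genotype Col1a2Cre-wt, which carried Cre alone. Col1a2Cre, a Cre recombinase expressed in fibroblasts, was thus present in all 6 libraries, on a mixed strain of 50% C57Bl/6 and 50% FVB/N.

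Actin filaments are built from 6 actin genes in the mouse, of which Actb and Actg1 are used by nearly every cell and Acta2 and Actg2 mark smooth muscle and the contractile state of a fibroblast, the myofibroblast. In wounded or fibrotic skin, myofibroblasts add smooth muscle actin to their stress fibres, pull on the matrix and close the wound. Many genes of this programme are switched on by the serum response factor, SRF, which binds a short DNA element called the CArG box, with the myocardin family of cofactors that sense free actin. Nrf2, the product of Nfe2l2, drives antioxidant and detoxification genes through another element, the antioxidant response element.

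The CArG box is a run of A and T between a pair of C and a pair of G. It was searched for on either strand in windows of 250 bases before to 50 bases after a RefSeq start, which 30 members have. It stood in 6 of their 37 windows, each of another gene, and in 1.63% of all 32851 windows. These were Srf, Actg1, Vcl, Cnn2 and Myl6, of 19 general members with a window, and Myl9, of 11 smooth muscle-type members with one. Of these 6 genes, Myl9 was called higher in caNrf2, where 12.5% of all genes tested were, and the other 5 were not called. The stretches below carry the element of Srf itself, of a cytoplasmic actin, of an adhesion protein and of the smooth muscle light chain. They are from RefSeq (GRCm38.p6), written 5′ to 3′ on the strand of the gene, with the element in capitals, and lie at chr17:46556205-46556254 (minus strand), chr11:120348566-120348595 (minus strand), chr14:20929161-20929190 (plus strand) and chr2:156775293-156775322 (plus strand) in this order.
Srf: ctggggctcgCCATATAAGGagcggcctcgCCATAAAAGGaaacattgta
Actg1: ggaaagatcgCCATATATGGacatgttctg
Vcl: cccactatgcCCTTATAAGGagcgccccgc
Myl9: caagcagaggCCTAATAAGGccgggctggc

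A looser form with 1 G or C inside the run stood in the windows of Acta2, Tpm3 and, besides its exact box, Myl9, and in 8.50% of all windows. It is shown in capitals for Acta2 (chr19:34255438-34255467, minus strand), in a stretch that an exon of a GENCODE M21 transcript overlaps.
Acta2: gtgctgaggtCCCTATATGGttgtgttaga

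The antioxidant response element core, TGACNNNGC on either strand, stood in 2 of the 37 member windows, those of Pdlim7 and Tpm4. It stood in 12.4% of all windows. Both genes were called higher, where 12.5% of all genes tested were. Both calls were lost in several fits with a library left out. Synpo2, the member that differed most between the groups, had neither form of the CArG box and no core of the antioxidant response element in its window. It held a MEF2 site, an AT-rich element bound by the muscle factors of the MEF2 family, which 3.19% of all windows share. That site was searched for after the sequence had been read. The 250 bases before its RefSeq start (chr3:123236150-123236399, minus strand) are shown with the MEF2 site in capitals.
Synpo2: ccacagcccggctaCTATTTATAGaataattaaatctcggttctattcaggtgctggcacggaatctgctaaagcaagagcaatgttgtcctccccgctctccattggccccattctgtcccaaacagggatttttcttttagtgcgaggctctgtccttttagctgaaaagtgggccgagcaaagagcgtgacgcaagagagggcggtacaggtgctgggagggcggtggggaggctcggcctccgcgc

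A letter match says nothing on whether a factor binds, and 6 members, among them Tagln, Myh11 and Actb, had no window.

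The libraries held between 30168400 and 45164208 expected counts. Nfe2l2, the targeted gene, stood at 352, 430 and 358 CPM (counts scaled to library size) in caNrf2 libraries 1 to 3, against 113, 103 and 112 CPM in ctrl libraries 1 to 3. It was 3.48-fold higher (edgeR adjusted p = 5.96e-06), and reads of the endogenous gene and of a transgene cannot be told apart. The edgeR quasi-likelihood test of 15341 genes called 12.5% of them higher in caNrf2 and 9.03% lower at an adjusted p under 0.05. The median log2 fold change of all of them was -0.003. Fibroblast markers summed to 27426 to 32496 CPM in caNrf2 and 37014 to 53043 CPM in ctrl libraries, with Col1a1 holding the most counts. By gene, 2 of these 10 markers were called higher and 3 lower, with a median log2 fold change of 0.04. The cultures also held RNA of other cells. Macrophage and leukocyte markers summed to 175, 191 and 158 CPM in caNrf2 libraries and to 22.2, 63.0 and 62.9 CPM in ctrl libraries.

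Several contractile genes were higher in caNrf2 cultures, led by Synpo2 (6.11-fold) and Cnn1 (2.89-fold), and Smtn was lower (0.617-fold). Of the 15 smooth muscle-type genes, 7 were called higher, Tagln, Cnn1, Myl9, Mylk, Myh11, Tpm1 and Synpo2, where 12.5% of all genes tested were. Smtn and Csrp2 were called lower, and 6 were not called. Of the 21 general genes, 5 were called higher, Myh9, Tpm4, Actn4, Pdlim5 and Pdlim7, none was called lower and 16 were not called. The median log2 fold change was 0.43 for the smooth muscle-type and 0.28 for the general genes, beside -0.003 for all genes. The log2 fold change was positive for 13 of the 15 and for 19 of the 21. Every caNrf2 library lay above every ctrl library in 8 genes of each class, as it did in 22.0% of all genes, and below in 2 and 1, as in 20.1% of all genes. In bulk RNA, fewer cells of a type and less RNA per cell cannot be told apart.

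**Figure D1:**
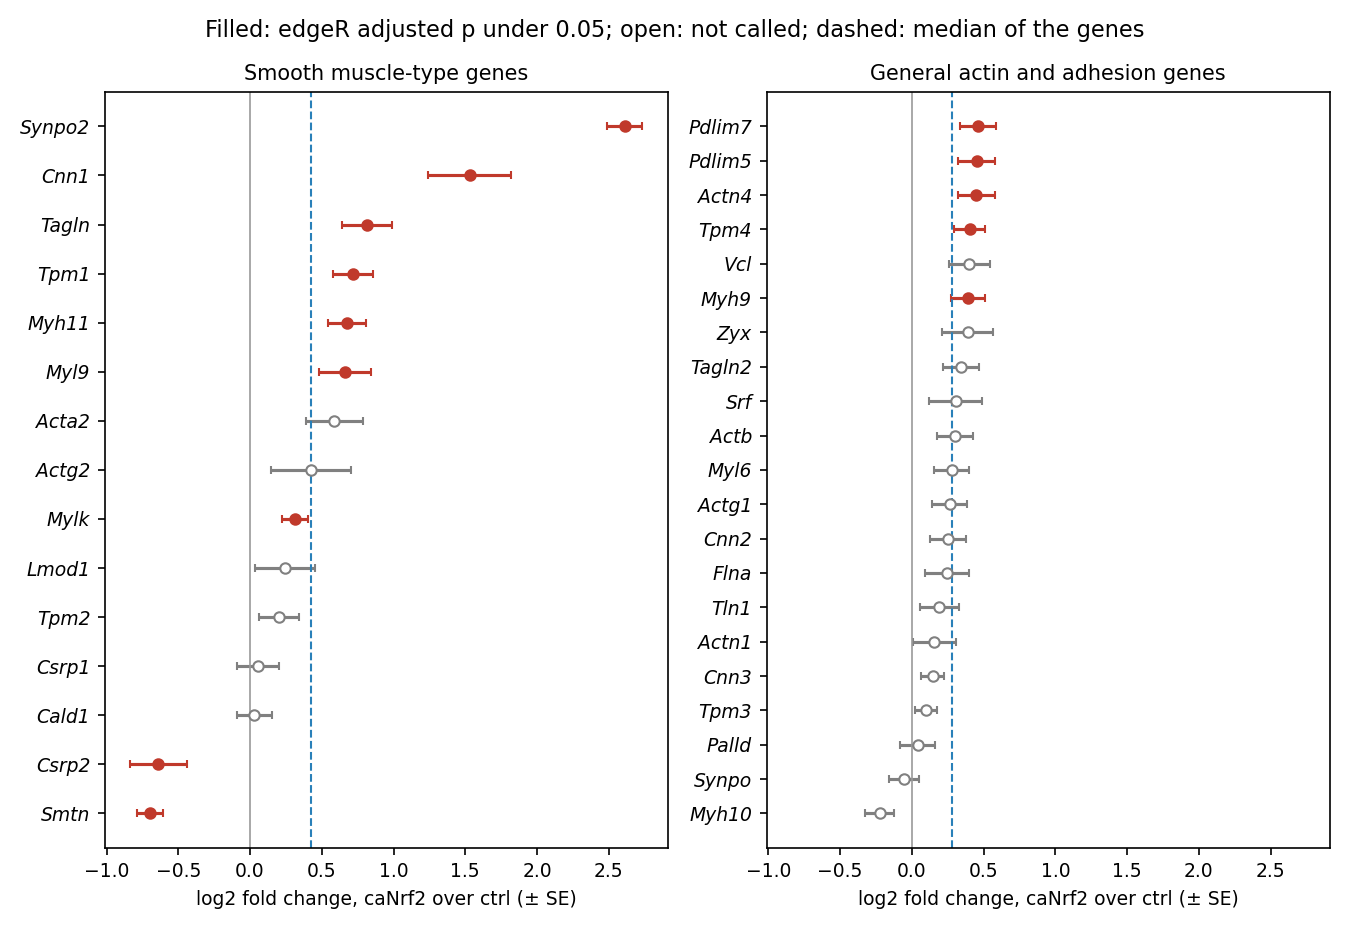
Log2 fold change of caNrf2 over ctrl for the 15 smooth muscle-type genes (left) and the 21 general genes (right), with the standard error; filled points were called by edgeR (adjusted p under 0.05) and the dashed line is the median of the class. Synpo2 at 2.61 and Cnn1 at 1.53 lie far right of the median of 0.43, Smtn and Csrp2 lie left of 0, and the general genes lie between -0.22 and 0.46.

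Smooth muscle actin itself was high in every culture. Acta2, the defining gene of the myofibroblast, had 2576, 2570 and 2207 CPM in caNrf2 libraries, against 1544, 2186 and 1165 CPM in ctrl libraries. All caNrf2 libraries were above all ctrl libraries, by only 2207 against 2186 CPM between the nearest. The log2 fold change was 0.59 (SE 0.20) and missed the threshold (edgeR adjusted p = 0.0678). It passed it without ctrl replicate 2 (0.85), with the replicate number as a block (0.63), with DESeq2 (0.59) and without a filter on low counts (0.58), and over all 15 alternatives the adjusted p lay between 0.00764 and 0.182. Actg2, the smooth muscle gamma actin, had 120, 156 and 121 CPM in caNrf2 libraries, against 112, 131 and 53.2 CPM in ctrl libraries. These overlapped, since ctrl library 2 was above caNrf2 libraries 1 and 3 (log2 fold change 0.43, SE 0.28, edgeR adjusted p = 0.308).

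Per length, in TPM (counts scaled to transcript length and library size), Acta2 was the third most abundant of the actin genes in all 6 libraries. It had 2563, 2805 and 2395 TPM in caNrf2 libraries, against 1690, 2410 and 1287 TPM in ctrl libraries. Actb, cytoplasmic beta actin, led with 3907, 4517 and 3854 TPM in caNrf2 and 3250, 4147 and 3086 TPM in ctrl libraries. Actg1, cytoplasmic gamma actin, followed at 3215 to 3823 TPM in caNrf2 and 2681 to 3560 TPM in ctrl libraries. The ranges of both overlapped between the groups. The smooth muscle actins Acta2 and Actg2 together made up 27.5%, 26.5% and 26.1% of the TPM of the 6 actins in caNrf2 libraries, and 23.2%, 25.2% and 19.1% in ctrl libraries. This share was higher in each caNrf2 library than in each ctrl library. The skeletal and cardiac actins Acta1 and Actc1, which are no members, were far lower, at 46.6 to 66.8 TPM in caNrf2 and 30.6 to 39.4 TPM in ctrl libraries. Actin genes share long stretches of sequence, so that the division of reads between them rests on the estimate of the authors' program.

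**Figure D2:**
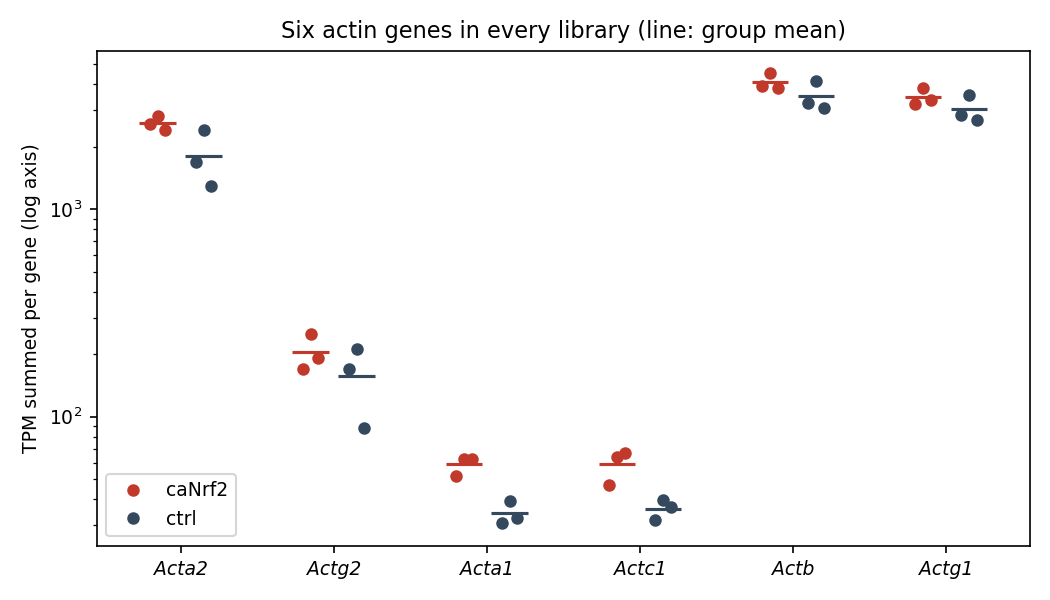
TPM summed per gene on a log axis for the 6 actin genes in the 3 caNrf2 and 3 ctrl libraries; points are libraries and lines are group means. Acta2 lies between 2395 and 2805 TPM in caNrf2 and spreads from 1287 to 2410 TPM in ctrl libraries, while Actb and Actg1 overlap between the groups.

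Genes of proteins that sit on smooth muscle actin filaments made up several of the higher calls. Tagln encodes transgelin (SM22 alpha), an actin cross-linker and early smooth muscle marker. It had 1094, 1104 and 880 CPM in caNrf2 libraries, against 576, 731 and 444 CPM in ctrl libraries, without overlap (log2 fold change 0.81, SE 0.17, edgeR adjusted p = 0.0112). Cnn1 encodes calponin 1, which binds actin and restrains the myosin ATPase. It had 58.6, 65.3 and 41.5 CPM in caNrf2 libraries, against 21.4, 25.0 and 10.5 CPM in ctrl libraries, a 2.89-fold difference (log2 fold change 1.53, SE 0.29, adjusted p = 0.00592). The lowest caNrf2 library was still above the highest ctrl library. Tpm1, a tropomyosin that winds along the filament, had 1010, 1097 and 922 CPM in caNrf2 libraries, against 638, 710 and 494 CPM in ctrl libraries (log2 fold change 0.72, SE 0.14, adjusted p = 0.00656). The groups did not overlap. Its relative Tpm2 had 155, 152 and 128 CPM in caNrf2 libraries, against 134, 143 and 101 CPM in ctrl libraries, which overlapped (log2 fold change 0.20, SE 0.14, adjusted p = 0.330).

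Synpo2, also called myopodin, encodes an actin-bundling protein of the Z-disc and of smooth muscle dense bodies, and it differed most. It had 50.3, 66.8 and 53.7 CPM in caNrf2 libraries, against 9.05, 10.1 and 8.79 CPM in ctrl libraries. Every caNrf2 library lay far above the ctrl libraries, which were close to each other (6.11-fold, log2 fold change 2.61, SE 0.12, edgeR adjusted p = 1.85e-06). It was called under all 15 alternatives, as were Tagln, Cnn1, Myh11, Tpm1 and, lower, Smtn. Its relative Synpo, synaptopodin, which serves stress fibres of podocytes, was not called. Synpo had 86.3, 103 and 99.3 CPM in caNrf2 libraries, against 104, 108 and 88.1 CPM in ctrl libraries (log2 fold change -0.05, SE 0.10, adjusted p = 0.739).

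The myosin motor genes differed in part. Myh11, the smooth muscle myosin heavy chain and a late marker of smooth muscle, had 47.5, 60.2 and 41.1 CPM in caNrf2 libraries, against 31.6, 32.5 and 29.0 CPM in ctrl libraries, without overlap (log2 fold change 0.68, SE 0.13, edgeR adjusted p = 0.00712). Myl9, the regulatory light chain whose phosphorylation starts contraction, had 335, 325 and 266 CPM in caNrf2 libraries, against 192, 247 and 145 CPM in ctrl libraries (0.66, SE 0.18, adjusted p = 0.0308). Mylk, the kinase that phosphorylates that chain, had 73.8, 73.4 and 68.4 CPM in caNrf2 libraries, against 63.4, 58.6 and 51.4 CPM in ctrl libraries (0.31, SE 0.09, adjusted p = 0.0362). Both were without overlap, and both calls were lost when single libraries were left out. For Myl9 these were caNrf2 replicates 1 (0.60) and 2 (0.62) and ctrl replicates 1 (0.64) and 3 (0.49), with an adjusted p of 0.000778 to 0.0964 over all 15 alternatives. For Mylk these were caNrf2 replicates 1 (0.29), 2 (0.29) and 3 (0.34) and ctrl replicates 2 (0.32) and 3 (0.23). Upper-quartile factors also ended the call of Mylk (0.28), and its adjusted p lay between 0.0174 and 0.123 over all alternatives.

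The remaining smooth muscle-type genes went other ways. Smtn encodes smoothelin, found in contractile smooth muscle, and was lower in caNrf2, with 45.0, 46.7 and 45.8 CPM against 65.0, 80.2 and 77.9 CPM in ctrl libraries. The caNrf2 libraries were nearly equal and all below the ctrl libraries (log2 fold change -0.70, SE 0.09, edgeR adjusted p = 0.000851). Csrp2, a LIM protein of smooth muscle, had 31.2, 19.1 and 26.7 CPM in caNrf2 libraries, against 37.7, 32.7 and 49.6 CPM in ctrl libraries (-0.64, SE 0.20, adjusted p = 0.0481). Its groups lay close together, and the call was lost without caNrf2 replicate 2 (-0.47) or 3 (-0.67), without ctrl replicate 1 (-0.69) or 3 (-0.46) and with a stricter filter (-0.64). Over its 15 alternatives the adjusted p of Csrp2 lay between 0.0049 and 0.15. Lmod1, leiomodin, a nucleator of actin filaments, had 65.6, 71.8 and 63.4 CPM in caNrf2 libraries, against 50.4, 79.0 and 39.8 CPM in ctrl libraries. Ctrl library 2 exceeded every caNrf2 library, and without it Lmod1 was called (log2 fold change 0.57, against 0.24 with it, adjusted p over the alternatives 0.016 to 0.895). Cald1, caldesmon, an actin-binding brake on myosin, and Csrp1, another LIM protein, overlapped between the groups, with log2 fold changes of 0.03 (SE 0.12) and 0.06 (SE 0.14).

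**Figure D3:**
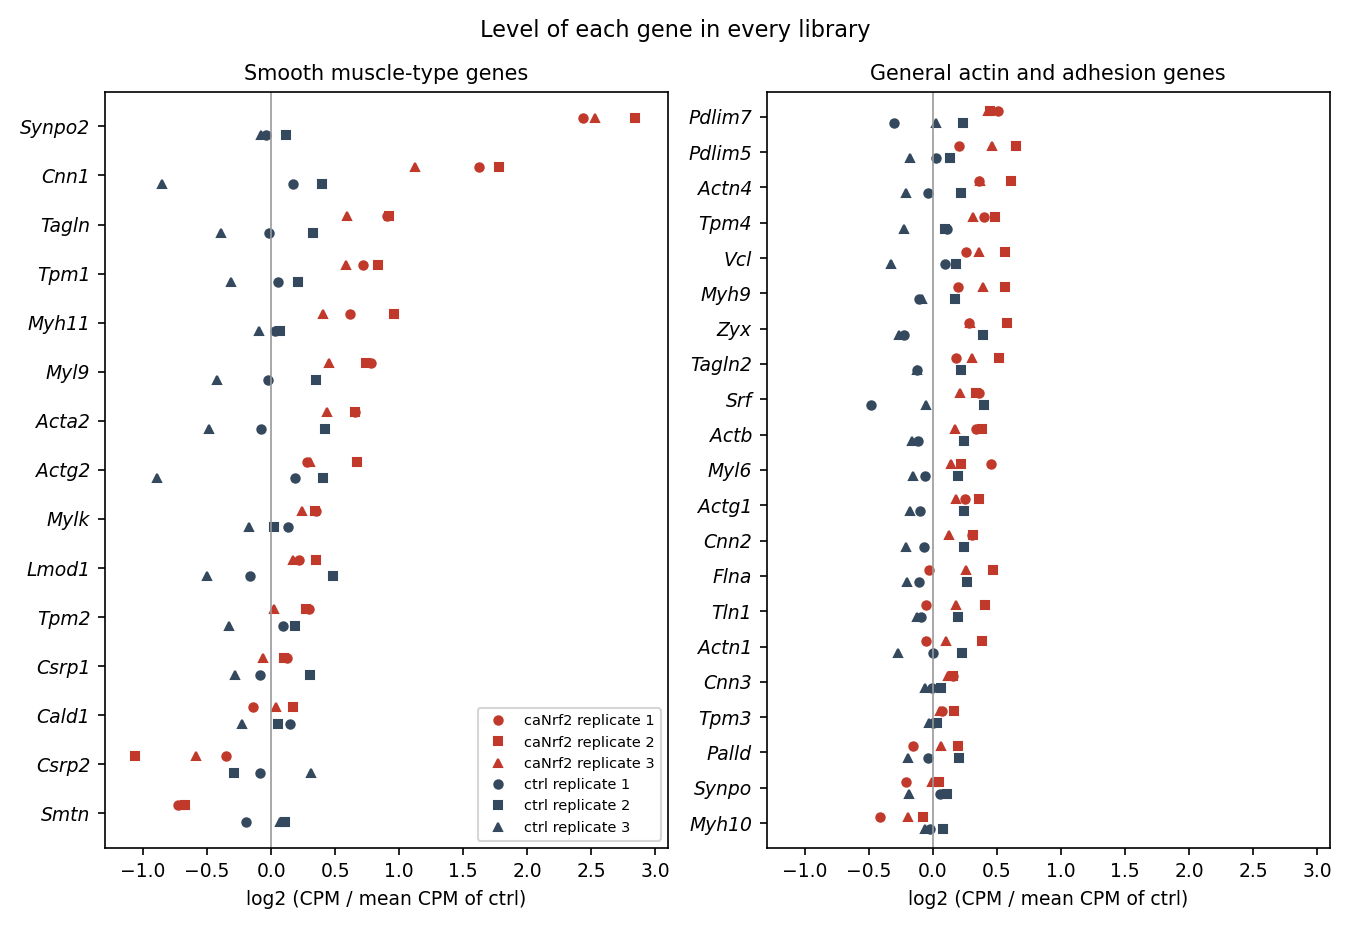
Level of each of the 36 genes in each library as log2 of its CPM over the mean CPM of the ctrl libraries (red, caNrf2; dark, ctrl; symbols give the replicate). The ctrl square, replicate 2, is the rightmost ctrl symbol in 32 genes and the ctrl triangle, replicate 3, the leftmost in 31. All red symbols lie right of all dark ones in 16 genes, with Synpo2 farthest, and left of them in 3, Smtn, Csrp2 and Myh10.

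The general genes of the cytoskeleton had log2 fold changes between -0.22 and 0.46. Actb had 4215, 4363 and 3768 CPM in caNrf2 libraries, against 3078, 3954 and 2984 CPM in ctrl libraries, which overlapped (log2 fold change 0.30, SE 0.12, edgeR adjusted p = 0.117). Actb was called without ctrl replicate 2 (0.44) and with the replicate block (0.31), over alternatives of 0.0456 to 0.31. Actg1 had 3412, 3678 and 3252 CPM in caNrf2 libraries, against 2681, 3400 and 2537 CPM in ctrl libraries, also with overlap (0.26, SE 0.12, adjusted p = 0.159).

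Among the non-muscle motors and filament binders, Myh9, the heavy chain of non-muscle myosin IIA that drives stress fibres, had 2245, 2893 and 2568 CPM in caNrf2 libraries, against 1816, 2207 and 1846 CPM in ctrl libraries (log2 fold change 0.39, SE 0.12, edgeR adjusted p = 0.0479). The groups were apart, by little between caNrf2 library 1 and ctrl library 2. Myh10, non-muscle myosin IIB, had 172, 216 and 199 CPM in caNrf2 libraries, against 225, 242 and 219 CPM in ctrl libraries. It was the single general gene with every caNrf2 library below every ctrl library, and was not called (-0.22, SE 0.10, adjusted p = 0.153). Tpm4, a short tropomyosin of stress fibres, had 1316, 1397 and 1239 CPM in caNrf2 libraries, against 1076, 1063 and 851 CPM in ctrl libraries, without overlap (0.40, SE 0.11, adjusted p = 0.0316). Tpm3 was at 377 to 407 CPM in caNrf2 and 355 to 372 CPM in ctrl libraries (0.10, SE 0.08, adjusted p = 0.402), so that the tropomyosins ran from 0.10 for Tpm3 to 0.72 for Tpm1 on the log2 scale. The essential light chain gene Myl6 had a log2 fold change of 0.28 (SE 0.12, adjusted p = 0.141), with overlap.

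The calponins and transgelins each have a smooth muscle-type and a general member. Cnn1 had a log2 fold change of 1.53, against 0.25 (SE 0.12, edgeR adjusted p = 0.189) for Cnn2 and 0.14 (SE 0.08, adjusted p = 0.223) for Cnn3, the calponins of non-muscle cells. A difference between these genes in response was not tested. Per length Cnn1 was the least abundant calponin, at 33.3 to 52.7 TPM in caNrf2 and 8.58 to 20.4 TPM in ctrl libraries. Cnn2 stood at 475 to 543 TPM in caNrf2 and 381 to 517 TPM in ctrl libraries, and Cnn3 at 385 to 423 TPM and 368 to 401 TPM. Tagln2, the widely expressed transgelin, had 197, 248 and 215 CPM in caNrf2 libraries, against 160, 203 and 159 CPM in ctrl libraries, with overlap (0.34, SE 0.13, adjusted p = 0.0877). It was called without ctrl replicate 2 (0.46), with DESeq2 (0.34) and with the block (0.34), over alternatives of 0.0208 to 0.259.

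Cross-linkers and adhesion proteins tie the filaments together and to the integrins. Actn4, an alpha-actinin of non-muscle cells, had 904, 1076 and 907 CPM in caNrf2 libraries, against 686, 818 and 608 CPM in ctrl libraries, without overlap (log2 fold change 0.45, SE 0.13, edgeR adjusted p = 0.0347). Pdlim5 and Pdlim7 encode adaptors that bind alpha-actinin or tropomyosin with a PDZ domain and kinases with LIM domains. Pdlim5 had 157, 214 and 188 CPM in caNrf2 libraries, against 139, 149 and 120 CPM in ctrl libraries (0.45, SE 0.13, adjusted p = 0.0352). Pdlim7 had 145, 139 and 137 CPM in caNrf2 libraries, against 82.9, 120 and 104 CPM in ctrl libraries (0.46, SE 0.12, adjusted p = 0.0300). Neither overlapped. Actn1, the closest relative of Actn4, had 510, 690 and 567 CPM in caNrf2 libraries, against 528, 620 and 438 CPM in ctrl libraries, with overlap (0.16, SE 0.15, adjusted p = 0.496). Vcl encodes vinculin, which links talin to actin, and had 889, 1100 and 954 CPM in caNrf2 libraries, against 795, 843 and 593 CPM in ctrl libraries. It was apart and not called (0.40, SE 0.14, adjusted p = 0.0782), and passed with the block (0.41), DESeq2 (0.40) or no filter (0.40), over alternatives of 0.0218 to 0.226. Zyx, zyxin of strained stress fibres, Flna, the filamin that cross-links filaments, Tln1, the talin that activates integrins, and Palld, palladin, all overlapped between the groups. Their log2 fold changes were 0.39 (SE 0.18), 0.25 (SE 0.16), 0.19 (SE 0.14) and 0.04 (SE 0.12) in this order, and Zyx was called without ctrl replicate 2 (0.63) and with the block (0.42), over alternatives of 0.0118 to 0.383. Srf had 110, 108 and 99.2 CPM in caNrf2 libraries, against 61.2, 113 and 82.5 CPM in ctrl libraries. Ctrl library 2 was above all others (0.30, SE 0.19, adjusted p = 0.276), and without it Srf was called (0.56, over alternatives of 0.0249 to 0.653).

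The 5 calls among the general genes were lost in many of the fits with a library fewer, mostly with log2 fold changes of like size. Their number was 0 without caNrf2 replicate 2, caNrf2 replicate 3 or ctrl replicate 3, 1 without ctrl replicate 1, 3 without caNrf2 replicate 1 and 8 without ctrl replicate 2. For Myh9 the log2 fold change was 0.29 and 0.38 without caNrf2 replicates 2 and 3, and 0.33 and 0.35 without ctrl replicates 1 and 3. For Tpm4 it was 0.40, 0.35 and 0.44 without caNrf2 replicates 1, 2 and 3, and 0.45 and 0.30 without ctrl replicates 2 and 3. For Actn4 it was 0.36 and 0.48 without caNrf2 replicates 2 and 3, and 0.42 and 0.35 without ctrl replicates 1 and 3. The same libraries ended the call of Pdlim5, at 0.33, 0.44, 0.45 and 0.37. Pdlim7 lost its call without caNrf2 replicate 1 (0.44), 2 (0.46) or 3 (0.47) and without ctrl replicate 1 (0.32) or 3 (0.47). The sizes stayed positive in each of these fits. The adjusted p over all 15 alternatives reached 0.171 for Myh9, 0.108 for Tpm4, 0.12 for Actn4, 0.119 for Pdlim5 and 0.077 for Pdlim7. Myh9 also lost its call with DESeq2 size factors (0.39), upper-quartile factors (0.36), the stricter filter (0.39), limma-voom (0.39) and posterior mean counts (0.39). The higher calls among the smooth muscle-type genes numbered 5 to 8 when a library was left out.

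The ctrl cultures differed from each other in these genes, and in the same order for most of them. Ctrl library 2 was the highest ctrl library in 32 of the 36 genes, as it was in 31.2% of all genes, and ctrl library 3 the lowest in 31, as in 29.7% of all genes. The median coefficient of variation between ctrl libraries was 21.4% for the smooth muscle-type genes and 14.5% for the general genes, beside 9.26% over all genes. Between caNrf2 libraries it was 11.0% for both classes, beside 9.50% over all genes. The median log2 ratio of the smooth muscle-type genes to their ctrl mean was 0.35, 0.66 and 0.30 in caNrf2 libraries and -0.02, 0.21 and -0.31 in ctrl libraries. For the general genes it was 0.21, 0.39 and 0.18 in caNrf2 libraries and -0.06, 0.21 and -0.18 in ctrl libraries. In the general genes, ctrl library 2 thus lay level with caNrf2 library 1 and above caNrf2 library 3. It lay below all caNrf2 libraries in the smooth muscle-type genes. Without ctrl replicate 2 the median log2 fold change was 0.68 for the smooth muscle-type and 0.40 for the general genes, and without ctrl replicate 3 it was 0.23 and 0.20.

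Set against each other by their summed CPM, the smooth muscle-type genes came to 0.362, 0.333 and 0.326 of the general genes in caNrf2 libraries, against 0.327, 0.314 and 0.271 in ctrl libraries. The ratio was higher in caNrf2 on average, but caNrf2 library 3 lay just under ctrl library 1. Most counts in the sums are those of Acta2, Cald1, Tagln and Tpm1 among the smooth muscle-type genes and of Actb, Flna, Actg1 and Myh9 among the general genes.

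**Figure D4:**
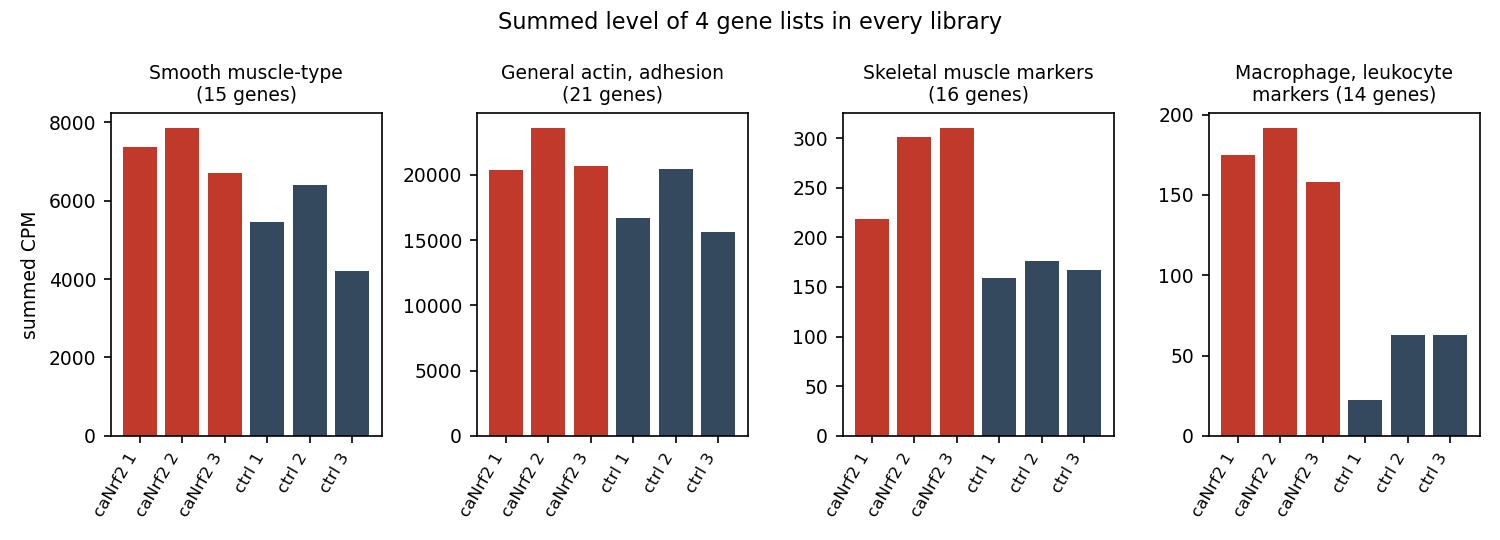
Summed CPM per library of the smooth muscle-type genes, the general genes, and the marker lists of skeletal muscle and of macrophages and leukocytes (red, caNrf2; dark, ctrl; each axis starts at 0 and has its own scale). The smooth muscle-type sum lies between 6721 and 7849 CPM in caNrf2 and between 4219 and 6412 CPM in ctrl libraries, and both marker lists are higher in every caNrf2 library.

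For 24 members, 2 or more transcripts could be tested for a shift in their share of the gene. Synpo2 was the only one called by the gene test (edgeR diffSpliceDGE adjusted p = 0.0162), where 1.18% of all genes tested were. The transcript ENSMUST00000106426 made up 49.8%, 49.1% and 52.2% of the TPM of Synpo2 in caNrf2 libraries, against 9.48%, 5.05% and 0% in ctrl libraries, without overlap. It held 1225, 1902 and 1549 expected counts in caNrf2 libraries, and 57.5, 45.7 and 0 in ctrl libraries (log2 fold change relative to the gene 2.74, adjusted p = 0.0259). The main ctrl transcript, ENSMUST00000051443, starts at the same base of chromosome 3 (123236147) and ends at 123110964. The caNrf2 transcript reads on to a far last exon at 123076519 to 123080258. The transcripts ending in that exon, 3 of 6 and grouped after their values were seen, made up 64.7%, 58.6% and 61.6% in caNrf2 libraries, against 16.5%, 13.1% and 8.66% in ctrl libraries. Those ending before it also stood higher in caNrf2, at 5.57, 9.40 and 6.78 TPM, against 3.70, 4.49 and 4.43 TPM in ctrl libraries. The Synpo2 promoter stretch printed above lies directly before that shared start.

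Tpm1 uses alternative exons at its second position, of which exon 2a is the smooth muscle form and exon 2b the form of most other cells. Both have 126 bases and are 47.6% identical. They are shown because a transcript with exon 2a was the other transcript called among the members. Exon 2a lies at chr9:67048124-67048249 and exon 2b at chr9:67047786-67047911 (GRCm38, minus strand, from the GENCODE M21 transcripts), with the 66 differing bases in capitals.
Tpm1 exon 2a: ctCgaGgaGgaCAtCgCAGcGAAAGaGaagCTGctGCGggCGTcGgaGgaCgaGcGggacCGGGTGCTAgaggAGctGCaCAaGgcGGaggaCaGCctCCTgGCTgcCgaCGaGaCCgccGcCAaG
Tpm1 exon 2b: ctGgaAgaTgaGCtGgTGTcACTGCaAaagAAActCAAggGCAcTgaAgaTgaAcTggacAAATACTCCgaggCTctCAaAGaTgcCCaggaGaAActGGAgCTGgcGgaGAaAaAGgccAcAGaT

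Among Tpm1 transcripts with exon 2a but not 2b, nearly all RNA was the transcript ENSMUST00000113705. It made up 17.9%, 16.4% and 13.9% of the TPM of Tpm1 in caNrf2 libraries, against 4.80%, 5.61% and 6.18% in ctrl libraries. Every caNrf2 library was above every ctrl library, and the transcript held 7107, 8484 and 5812 expected counts in caNrf2 and 1161, 1869 and 1020 in ctrl libraries. Its log2 fold change relative to the gene was 1.54 (diffSpliceDGE transcript test adjusted p = 0.0392, where 0.223% of all transcripts tested were called), while Tpm1 was not called by the gene test (adjusted p = 0.512). With transcripts under 5% of their gene left out, the gene test called Tpm1 as well (adjusted p = 0.0126, over its 10 alternatives 0.0126 to 0.955). In TPM, transcripts with exon 2a but not 2b stood at 194, 212 and 147 in caNrf2, against 36.3, 46.6 and 37.7 in ctrl libraries. The 1 transcript with both exons stood at 14.6, 9.08 and 11.9 in caNrf2, against 23.8, 1.41 and 13.7 in ctrl libraries. Transcripts with exon 2b but not 2a held 66.4%, 69.5% and 69.7% in caNrf2, against 73.4%, 72.4% and 60.6% in ctrl libraries. These overlapped. Those with neither exon held less in caNrf2, at 14.3%, 13.4% and 15.3%, against 18.7%, 21.8% and 31.0% in ctrl libraries, without overlap.

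Both transcript calls were fragile. The gene test of Synpo2 missed the threshold without caNrf2 replicate 1, 2 or 3, without ctrl replicate 2 and with the replicate block, with an adjusted p of 0.0800, 0.115, 0.133, 0.101 and 0.198 in this order, and of 9.95e-07 to 0.198 over its 10 alternatives. In these fits the relative log2 fold change of its transcript was 2.74, 2.77, 2.74, 2.79 and 3.09. The Tpm1 transcript missed it without caNrf2 replicate 1 (1.45) or 2 (1.53), without ctrl replicate 1 (1.45), 2 (1.54) or 3 (1.63), with limma (1.74) and with the block (1.52). Checked on simulated counts, the usage test missed most small shifts and also called genes without a shift, so single calls are uncertain.

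**Figure D5:**
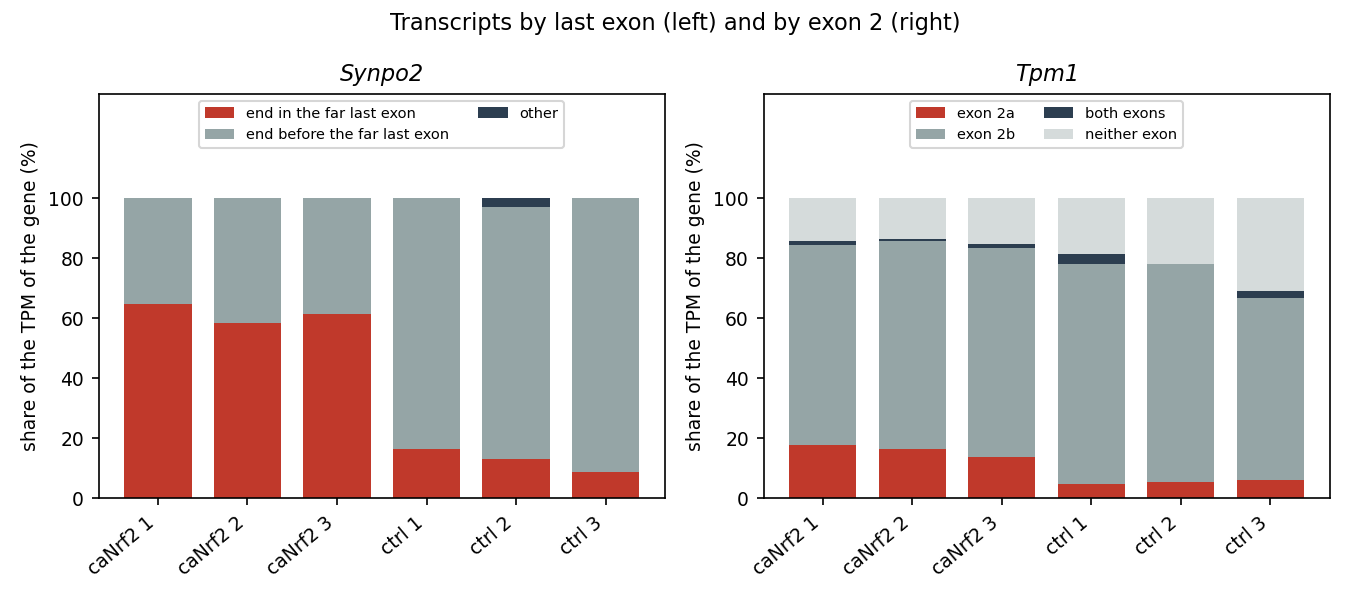
Stacked shares of the TPM of Synpo2 (left, by last exon) and Tpm1 (right, by exon 2) in each of the 3 caNrf2 and 3 ctrl libraries. Red marks Synpo2 transcripts with the far last exon, 58.6% to 64.7% in caNrf2 and 8.66% to 16.5% in ctrl libraries. For Tpm1, red marks transcripts with exon 2a but not 2b, 13.9% to 17.9% in caNrf2 and 4.80% to 6.18% in ctrl libraries.

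Of 21 tested SRF cofactors and other SRF target genes, 2 were called higher, Elk3 and Fhl1, 2 lower, Myocd and Fhl2, and the median log2 fold change was 0.09. These shares, 9.52% each, lie near the 12.5% higher and 9.03% lower of all genes. Myocd, the cofactor that defines smooth muscle cells, was low, with 1.52, 1.53 and 1.54 CPM in caNrf2 libraries, against 3.41, 3.73 and 2.71 CPM in ctrl libraries (log2 fold change -1.10, SE 0.18, edgeR adjusted p = 0.00342). Each caNrf2 library was below each ctrl library in Myocd and above each in Cnn1, Tagln and Myh11. Mrtfa and Mrtfb, the actin-sensing cofactors of SRF, had log2 fold changes of 0.04 (SE 0.13, adjusted p = 0.856) and 0.09 (SE 0.10, adjusted p = 0.531). The higher calls of this list numbered 5 without ctrl replicate 2, 1 without caNrf2 replicate 1 or ctrl replicate 3 and 0 without caNrf2 replicate 2, and its lower calls numbered 4 with upper-quartile factors.

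Of 24 further focal adhesion and integrin genes, 4 were higher, with Itga3 and Src leading, and 1 was lower, Nedd9, with a median of -0.02. The shares of 16.7% higher and 4.17% lower lie near the 12.5% and 9.03% of all genes.

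TGF-beta is the main inducer of the myofibroblast state. Of genes of its pathway, those called with a small adjusted p included a receptor that was higher and TGF-beta-responsive genes that were lower. Tgfbr2, the ligand-binding receptor, had 431, 404 and 452 CPM in caNrf2 libraries, against 245, 267 and 269 CPM in ctrl libraries (log2 fold change 0.72, SE 0.09, edgeR adjusted p = 0.000529). Postn, which encodes the matrix protein periostin, had 887, 850 and 1191 CPM in caNrf2 libraries, against 1754, 2616 and 2949 CPM in ctrl libraries (-1.32, SE 0.20, adjusted p = 0.00209). Nox4, an oxidase induced by TGF-beta in myofibroblasts, was lower as well (-1.04, SE 0.14, adjusted p = 0.00111).

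Other cells with contractile genes can be read from their markers. Pericyte and vascular smooth muscle markers were not higher as a list. Of 11 tested, 4 were called lower, among them Abcc9, Myocd and Pdgfrb, where 9.03% of all genes were. The 1 called higher was Casq2, where 12.5% of all genes were, and the median was -0.45. The lower calls numbered 2 without caNrf2 replicate 2, ctrl replicate 2 or ctrl replicate 3. The markers of this list summed to 607, 717 and 741 CPM in caNrf2 libraries, against 799, 915 and 891 CPM in ctrl libraries. Pdgfrb held the most counts, and Pln, phospholamban of smooth and cardiac muscle, was at 0 in all 6 libraries. Skeletal muscle markers were called higher in 10 of 14 tested, where 12.5% of all genes were, with a median of 0.76. They summed to 218, 301 and 310 CPM in caNrf2 libraries, against 159, 177 and 168 CPM in ctrl libraries, while the satellite cell genes Myf5 and Pax7 stayed at or under 0.09 CPM. The 20 striated muscle paralogs of the members share genes such as Acta1 with that list and include Myl1, Myl4 and Mylpf. Of them 16 were called higher, beside 12.5% of all genes, and none lower, with a median of 0.83. Acta1 had 41.1, 45.1 and 45.4 CPM in caNrf2 libraries, against 22.1, 28.2 and 23.3 CPM in ctrl libraries (log2 fold change 0.84, SE 0.10, edgeR adjusted p = 0.000689). Myog, the myogenic factor of differentiating muscle cells, had 9.04, 9.79 and 10.2 CPM in caNrf2 libraries, against 4.85, 5.27 and 5.65 CPM in ctrl libraries (0.88, SE 0.12, adjusted p = 0.00101). Macrophage and leukocyte markers were called higher in all 13 tested, where 12.5% of all genes were, with a median of 1.94. Of keratinocyte, endothelial and melanocyte markers, 1 of 9, 1 of 8 and 2 of 9 tested were higher. These shares were 11.1%, 12.5% and 22.2%, beside 12.5% of all genes, and no marker was called lower. Whether these cells contribute to the levels of Synpo2, Cnn1, Tpm1 or other members was not tested.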

How the data were processed

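RNA-seq tables of 6 libraries were used, grouped and numbered by the sample titles. The design text names 3 mice per group, and each library was taken as a separate mouse; where this does not hold, p-values cover the spread between libraries only. The submitters' processing notes name CASAVA 1.8, RSEM 1.2.21 and GRCm38. No label or header used here states the strand setting, read length or annotation release, so reads of overlapping antisense genes cannot be told apart. Exons of 9 members overlap those of another gene, and the partner exceeded 10% of the member in 1 case, Vcl with Ap3m1. Per the file headers, the authors deposited expected counts per transcript (maximum likelihood and posterior mean) and TPM. The deposited FPKM were not used.

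Expected counts by maximum likelihood were added up per gene ID, then rounded. The gene test was that of edgeR 4.0.16, run in R 4.3.3 (filterByExpr with minimum count 10 and total 15, TMM, two-sided quasi-likelihood F test, Benjamini-Hochberg over all 15341 genes, threshold 0.05). CPM use TMM-scaled library sizes. Totals of 30168400 to 45164208 make 3 counts, taken as the detection floor, worth at most 0.0994 CPM. Both tests were first run on simulated data. Transcript usage was tested with diffSpliceDGE on rounded transcript counts. Members, classes and lists were chosen with earlier results of these data known. All members are named; of further lists the 3 called genes of smallest adjusted p per direction could be named, and Mrtfa and Mrtfb were added after their values were seen. A further list and the counts of the TGF-beta list are not reported here. Alternatives were other scalings and filters, DESeq2 1.42.0, limma 3.58.1, posterior mean counts, a replicate block and each library left out.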

Additional observations from a re-analysis of the deposited data

How the results depend on the processing

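Over the 15 alternatives of the gene test, 474 of the members' values kept direction and side of the threshold, 42 lost a call and 16 gained one. The sign changed in 8, all of members that were not called. Cald1 was at -0.0099 with upper-quartile factors. With a library left out Cald1 lay between -0.075 and 0.11, Csrp1 between -0.070 and 0.24, Palld between -0.050 and 0.16 and Synpo between -0.14 and 0.018. With the stricter filter 1 smooth muscle-type gene was lower. With the replicate block 9 general genes were higher and 0 members shifted in transcript usage. Same-numbered libraries deviated together with r of 0.214, 0.209 and 0.0953, which were the highest values for replicates 1 and 2, while caNrf2 replicate 3 correlated best with ctrl replicate 2 (0.112). In turn, each ctrl library correlated best with the caNrf2 library of its number. With 1 value under 0.1 the numbers were not used to pair the libraries in the main fits, but a pairing was not excluded. Usage calls numbered 2 with a 5% filter on transcripts and 3 with posterior mean counts.

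Leaving out 1 library gave 1342 to 1755 genes higher and 823 to 1143 lower over all genes, 5 to 8 smooth muscle-type genes higher and 1 to 2 lower, 0 to 8 general genes higher, and 0 to 2 usage calls. The count of general genes called lower was 0 in every fit. Other scalings moved the median log2 fold change of all genes no further than -0.04.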
